A study of Arabidopsis thaliana with 24 samples.

Results

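The genes described here fell in Arabidopsis shoots after 24 h in the cold without a comparable change in roots. They are 136 of 22746 probe sets, or 0.598%, chosen on ratios of the mean MAS5 intensity of a group at 24 h to that at 0.5 h in the same tissue, with 10 added to both means. A probe set entered with a shoot mean of at least 100 at 0.5 h, a shoot ratio of at most 0.25 and a root ratio between 0.67 and 1.5. Of the 6302 probe sets with that shoot level, 2.16% entered. The probe table gave 1 gene for 73 of them and listed none for 63.

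The plants were Col-0, kept at 24 °C and 50% humidity under 16 h days on Murashige and Skoog medium. The cold (4 °C) began on day 16, once the lights had been on for 3 h, with an extra lamp above the boxes. Shoots and roots were each sampled at 0.5, 1, 3, 6, 12 and 24 h, with 2 ATH1 arrays for each of the 12 groups. Every group was in the cold and no untreated group was used, so each change is against an earlier time in the cold. The labels do not say whether paired arrays held RNA of separate plants, so the p-values cover only the spread between arrays, which may be technical.

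Arabidopsis acclimates to low, non-freezing temperatures by switching on cold-regulated genes that protect membranes and proteins, while leaf expansion and the metabolism that feeds it slow down. Genes that are turned down in shoots in the cold include many of cell walls, development and primary metabolism. Stomata, the pores of the shoot epidermis, form under the control of secreted peptides and of basic helix-loop-helix factors. Pectin, the gel-like polysaccharide of young walls, is remodelled by pectate lyases and pectin methylesterases.

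The tissue labels were borne out by markers. Rubisco activase RCA lay between 4635 and 5812 on the 12 shoot arrays and between 83.0 and 247 on the 12 root arrays. The root-expressed OSM34 lay between 0.621 and 16.1 on shoot arrays and between 744 and 1977 on root arrays. The cold response itself was present: all 6 cold-regulated (COR) genes measured rose at 12 h against 1 h in both tissues. The pairs of arrays at 1 h in shoots and at 3 h in roots stood apart from each other more than other pairs, with standard deviations of their log2 difference of 0.435 and 0.470, against 0.224 to 0.350 elsewhere. The 1 h shoot arrays are the baseline of every change in shoots below.

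The values that chose the genes are given as a description only. The shoot ratio ranged from 0.032 to 0.2496, with a median of 0.178, and the root ratio had a median of 0.934. On the shoot level, the trihelix factor gene GT2 lay just inside at 104, followed by AT3G19850 at 106.0 and AT2G40020 at 106.4. Just outside were a probe set with no gene listed at 99.8, AT1G10020 at 99.3 and AT2G25735 at 96.6. On the shoot ratio, the nearest inside were 0.2496, 0.2488 (AT5G40500) and 0.2476 (AT2G25200), and the nearest outside were 0.2510, 0.2513 and 0.2557. The root bounds were as finely placed: 0.6701, 0.6732 and 0.6772 (AT4G16980) stood inside the lower one and 0.6690, 0.6579 (AT3G06070) and 0.6516 outside. At the upper root bound, 1.4776, 1.4530 (AT2G29300) and 1.4472 (AT4G33666) stood inside and 1.5053, 1.5097 and 1.5135 (EXGT-A3) outside.

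In shoots the decline was gradual. The median of the 136 group means was 268 at 0.5 h, 253 at 1 h, 224 at 3 h, 150 at 6 h, 61.7 at 12 h and 32.5 at 24 h. The highest mean was 550 at 24 h, against 2541 at 0.5 h, and 66 probe sets had a mean under 30 at 24 h, a level at which MAS5 values are close to background. In roots the medians were 17.7, 19.4, 17.0, 18.9, 13.9 and 14.6 over the same times. The curves of single probe sets show the spread around these medians.

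**Figure D1:**
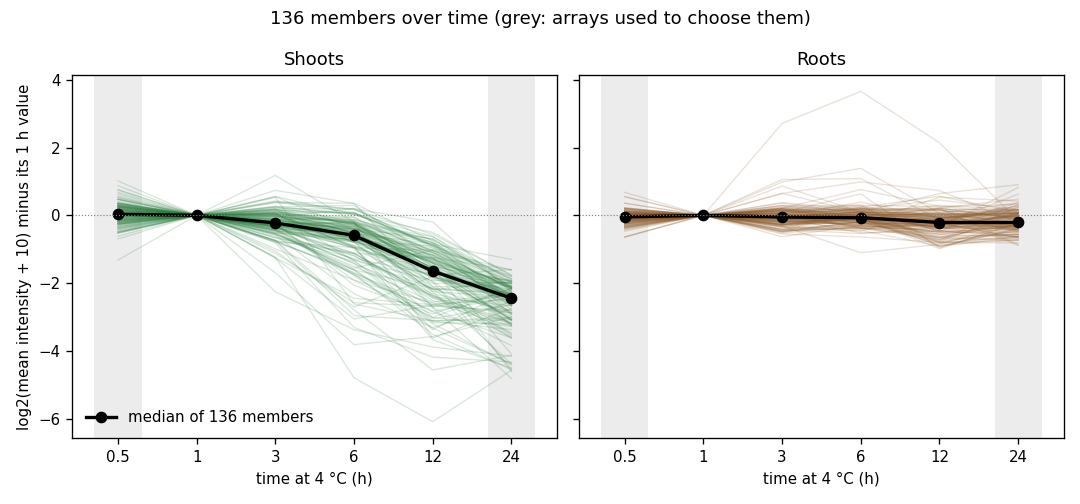
Change over time of the 136 probe sets in shoots (left) and roots (right), as log2 of the group mean plus 10, less its 1 h value, against hours at 4 °C. Thin lines are probe sets, the black line is their median, and grey bands mark the 0.5 and 24 h arrays that chose them; the shoot lines spread downward after 3 h and the median root line stays near 0, with AT5G11070 highest among the root lines.

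The course between the ends was tested on the 16 arrays at 1, 3, 6 and 12 h, which the choice did not use. limma was fitted to log2(intensity + 10) across 15753 probe sets, all 136 included, with Benjamini-Hochberg adjustment and a threshold of 0.05. At 3 h against 1 h, 9 of the 136 fell in shoots, where 0.565% of all probe sets did. At 6 h 62 fell, against 7.55% of all, and at 12 h 126 fell, against 22.1% of all. None of the 136 rose at 3, 6 or 12 h, where 2.7%, 7.5% and 13.2% of all did; of either direction, 38, 78 and 132 had an unadjusted p under 0.05. The median log2 change was -0.23 at 3 h, -0.58 at 6 h and -1.61 at 12 h, while that of all probe sets was -0.05, -0.08 and -0.13. Declines of at least 2-fold that passed the test numbered 7 at 3 h, 38 at 6 h and 112 at 12 h (0.159%, 1.93% and 7.15% of all). All 136 changes were negative at 12 h.

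Sampling at 3, 6 and 12 h fell 6, 9 and 15 h after lights on, against 4 h for the 1 h arrays, so in these tests the hour of the day and the hours of cold cannot be told apart. In whole shoots, less RNA per cell and fewer cells of a type cannot be told apart either. Without the second 6 h shoot array the median log2 change of the 136 at 6 h was -0.50, against -0.07 for all probe sets. Of the 136 changes 119 were then negative, against 121 with that array. Without the second 1 h shoot array the median at 3 h was -0.22, against -0.02 for all. Then 83 of the 136 changes at 3 h were negative, against 97 with that array. With 30 added to the intensities, 1 of the 136 rose at 3 h by the limma test. So did 1 with all 24 arrays in the fit, 1 with limma-trend and 1 of the 130 tested with the filter at 100. Leaving out single arrays could also give such rises.

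Few of the same probe sets passed the test in roots at 3 and 6 h. At 3 h none fell and 2 rose by the limma test, where 0.0698% of all fell and 0.901% rose; 8 of the 136 had an unadjusted p under 0.05 in either direction. At 6 h 1 fell and 2 rose, where 1.26% and 3.75% of all did. At 12 h 17 fell and 2 rose, where 15.9% of all fell and 8.55% rose, and the median log2 change was -0.21 against -0.13 for all. The 12 h count was lower when any 1 of the 4 root arrays at 1 and 12 h was left out, and so was that of all probe sets. The median log2 change then lay between -0.14 and -0.27, against -0.11 to -0.15 for all. With arrays centred on their median 5 of the 136 fell and 1182 of all 15753, against 2504 of all as reported.

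The change in shoots was then set against the change in roots in the same fit. It was lower in shoots than in roots for 5 of the 136 at 3 h, 35 at 6 h and 102 at 12 h, where 0.127%, 2.16% and 8.59% of all probe sets passed. None of the 136 had the opposite difference past the threshold, where 0.774%, 3.05% and 9.13% of all did, and 23, 62 and 118 had an unadjusted p under 0.05 in either direction. With single arrays left out, an opposite difference could pass at 3 h. The median difference at 12 h was -1.46, against 0.02 for all probe sets.

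**Figure D2:**
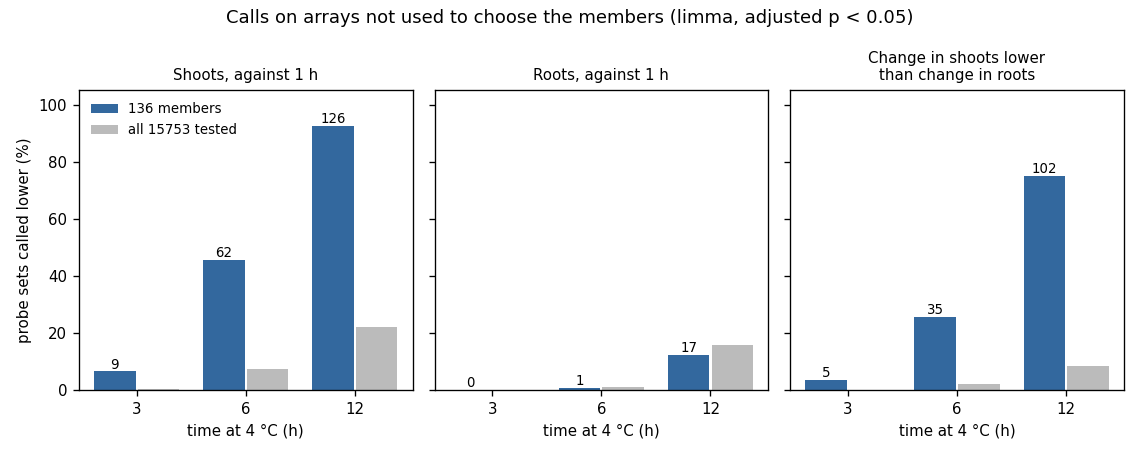
Percent of probe sets called lower (limma, adjusted p under 0.05) at 3, 6 and 12 h, in shoots, in roots and for the change in shoots less that in roots; blue bars are the 136 probe sets, with their counts on top, and grey bars all 15753 tested. At 12 h the counts on the blue bars are 126 in shoots and 17 in roots, where the blue bar is lower than the grey bar (15.9%).

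Most of these genes had little signal in roots to lose. Over the 8 root arrays from 1 to 12 h, the mean was under 30 for 84 of the 136 (61.8%), between 30 and 100 for 24 and over 100 for 28 (20.6%). With 10 added to both means, a gene near background in roots has a root ratio near 1 whatever its course, so the choice favours such genes. Among the 170 probe sets that met the shoot bounds and had a root ratio under 0.67, 28 (16.5%) had a root mean under 30. Among all 6302 with a shoot mean of at least 100 at 0.5 h, 658 (10.4%) did.

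At 1 h, 121 of the 136 were lower in roots than in shoots and 3 were higher, where 23.6% and 45.3% of all probe sets were. The choice asked for a minimum level in shoots at 0.5 h and for none in roots. The excess lower in roots thus follows in part from the choice and is a description only. The 3 higher in roots were AT5G46780, AT2G24550 and a probe set with no gene listed. The difference between tissues was not confined to genes near background in roots. Of the 28 with a root mean over 100, 27 fell in shoots at 12 h and 22 had a lower change in shoots than in roots, with a median difference of -1.82. Of the 84 under 30, 77 fell in shoots and 62 passed the test of the difference, with a median of -1.49. For those 84 the difference largely restates the fall in shoots, since the root values lay near the floor on every scale used.

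**Figure D3:**
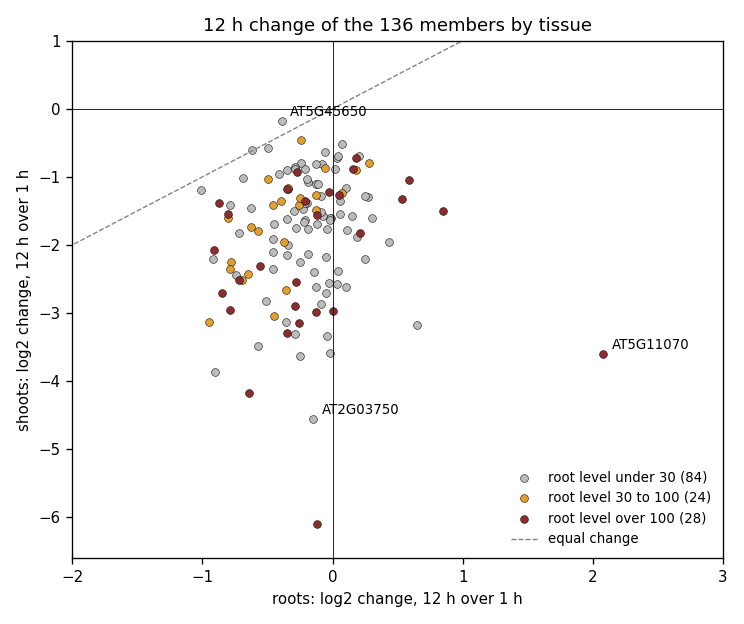
Log2 change at 12 h over 1 h in shoots (vertical) against that in roots (horizontal), 1 point per probe set, coloured by mean root intensity from 1 to 12 h; the dashed line marks equal change. Nearly all points lie below the line, AT5G11070 far to the right of the others with -3.60 in shoots and 2.08 in roots.

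AT5G46780, which encodes a VQ motif protein of a family that binds WRKY factors, was a clear case of a gene used in both tissues. In shoots its 2 arrays read 116 and 140 at 1 h, 92.8 and 124 at 3 h, 25.3 and 20.7 at 6 h and 7.64 and 9.17 at 12 h. Its root arrays read 255 and 211 at 1 h, 341 and 271 at 3 h, 261 and 261 at 6 h and 208 and 170 at 12 h. The shoot arrays at 6 and 12 h lay far below those at 1 and 3 h, and the root arrays lay above every shoot array at all of these times. The log2 change at 12 h was -2.90 ± 0.18 in shoots (SE; limma, adjusted p = 5e-08) and -0.29 ± 0.18 in roots (adjusted p = 0.27), and the difference was -2.61 ± 0.25 (adjusted p = 1.6e-05).

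AT2G24550, a locus given no role here, had the same shape. Its shoot arrays read 155 and 239 at 1 h, 150 and 178 at 3 h, 47.4 and 42.3 at 6 h and 13.5 and 18.1 at 12 h, while its root arrays from 1 to 12 h lay between 338 and 538. Both shoot arrays at 12 h were below those at 1 h, and the root arrays at 12 h, 389 and 390, lay between the 2 root arrays at 1 h. The change at 12 h was -2.98 ± 0.22 in shoots, and the difference from roots was -2.85 ± 0.31 (limma, adjusted p = 3.9e-05).

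ASPGB1, an asparaginase that releases ammonium from asparagine, read 419 and 275 at 1 h in shoots, 212 and 128 at 3 h, 75.0 and 95.1 at 6 h and 51.9 and 47.2 at 12 h. Its root arrays from 1 to 12 h lay between 90.7 and 175. The shoot arrays at 6 and 12 h were below both arrays at 1 h, with a change at 12 h of -2.55 ± 0.27 in shoots and a difference from roots of -2.27 ± 0.38 (limma, adjusted p = 0.0011). AT2G32150, of the haloacid dehalogenase-like hydrolases, fell by 2.96 on the log2 scale in shoots, and its root change was -0.79 ± 0.27 (adjusted p = 0.051). IAGLU, a glucosyltransferase acting on the auxin indole-3-acetate, changed by -2.31 ± 0.19 in shoots at 12 h and by -0.56 ± 0.19 in roots (limma, adjusted p = 9.3e-07 and 0.052).

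AT5G11070, a locus without a role given here, went opposite ways in the tissues. Its shoot arrays read 537 and 752 at 1 h, 1345 and 1600 at 3 h, 755 and 365 at 6 h and 39.7 and 46.8 at 12 h. Its root arrays read 79.3 and 66.1 at 1 h, 531 and 531 at 3 h, 1022 and 1045 at 6 h and 460 and 250 at 12 h. Shoots were highest at 3 h and roots at 6 h, and at 12 h the root arrays lay above the shoot arrays, the reverse of 1 h. In shoots the change was 1.19 ± 0.31 at 3 h (limma, adjusted p = 0.062) and -3.60 ± 0.31 at 12 h (adjusted p = 1.4e-06). In roots it rose by 2.71 at 3 h, 3.66 at 6 h and 2.08 at 12 h on the log2 scale, and the 12 h difference between tissues was -5.69 ± 0.44 (adjusted p = 3.3e-06). By 24 h its root arrays read 49.6 and 79.5, against 32.5 and 53.8 at 0.5 h, so the choice on those 2 times did not see the rise between them.

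The largest fall at 3 h among annotated genes was that of AT5G08350. Its shoot arrays read 224 and 211 at 1 h, 86.7 and 103 at 3 h, 26.4 and 29.9 at 6 h and 19.7 and 31.6 at 12 h. The arrays at 3 h were already below both at 1 h, and the decline was nearly complete by 6 h. The change was -1.12 ± 0.16 at 3 h, -2.58 ± 0.16 at 6 h and -2.70 ± 0.16 at 12 h (limma, adjusted p = 0.00094, 1.6e-07 and 4.4e-08). It also fell in roots, by 1.10 at 6 h and by 0.85 at 12 h on the log2 scale (adjusted p = 0.0011 and 0.0022), and was the 1 probe set of the 136 that fell in roots at 6 h. The difference between tissues at 12 h was -1.85 ± 0.23 (adjusted p = 0.00011). AT2G03310, the other annotated gene that fell in shoots at 3 h, changed by -0.77 ± 0.12 then and by -1.64 ± 0.12 at 12 h (adjusted p = 0.0018 and 2.8e-07).

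The deepest fall of an annotated gene at 12 h was that of AT2G03750, a sulfotransferase. Its shoot arrays read 516 and 696 at 1 h, 391 and 333 at 3 h, 94.5 and 64.0 at 6 h and 14.0 and 18.4 at 12 h, and its root arrays lay between 9.67 and 17.8 over those times. By 12 h the shoot arrays were close to the root arrays, at 10.2 and 15.7. The change at 12 h was -4.55 ± 0.21 (limma, adjusted p = 3.4e-09). AT4G33666, with no role given here, kept 413 and 311 at 6 h and had 42.1 and 48.8 at 12 h, against 523 and 864 at 1 h, a change of -3.63 ± 0.24. AT2G34620, of the mTERF family that acts in the expression of organelle genes, read 932 and 642 at 1 h, 441 and 494 at 3 h, 267 and 197 at 6 h and 62.1 and 58.1 at 12 h. Each of its later pairs lay below the pair before it, and its 12 h change was -3.48 ± 0.22 (adjusted p = 5.7e-08).

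Also low at 12 h were AT2G27420, a papain-type cysteine protease, at 25.6 and 34.2 against 418 and 362 at 1 h (log2 change -3.33 ± 0.19), and AT1G60010, at 64.8 and 57.1 against 632 and 520 (-3.04 ± 0.18). AT2G29300, a short-chain dehydrogenase, had 28.4 and 11.4 at 12 h against 258 and 152 at 1 h (-2.86 ± 0.28). AT4G28290 and AT1G13650 changed by -2.83 ± 0.21 and -2.71 ± 0.18. All 5 passed the limma test, and for each of them both 12 h arrays lay below both 1 h arrays.

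**Figure D4:**
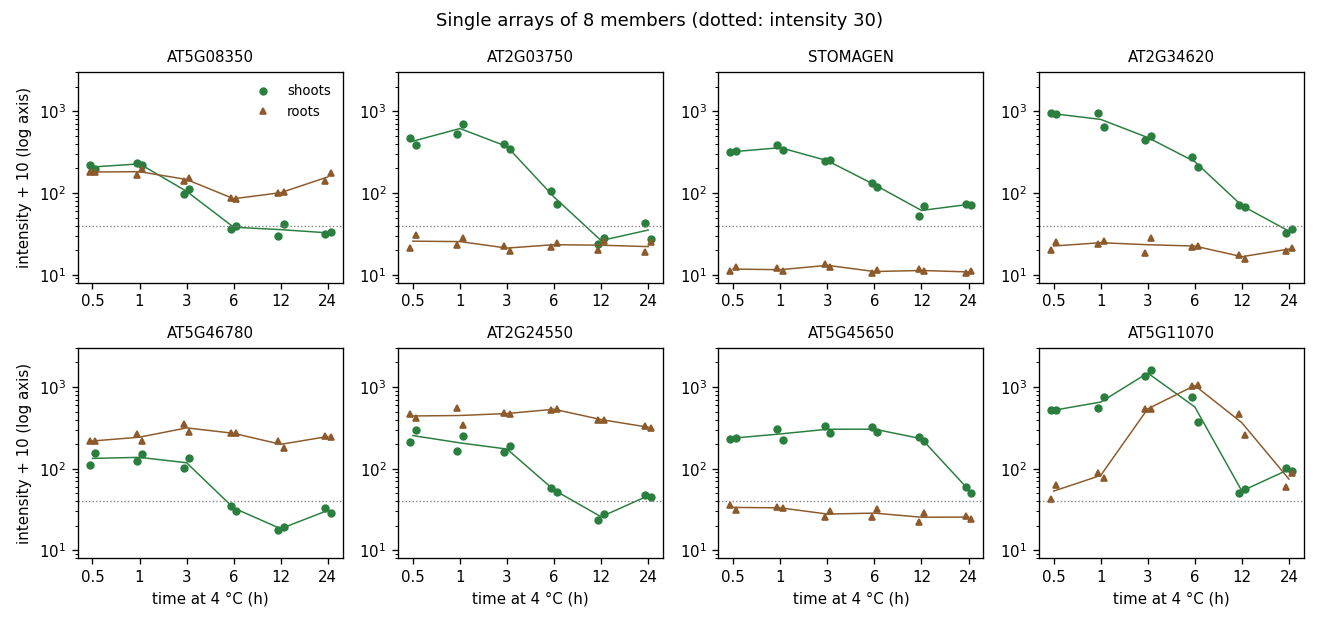
Intensity plus 10 on a log axis against hours at 4 °C for 8 genes, with green circles for single shoot arrays, brown triangles for single root arrays, lines through the group means and a dotted line at intensity 30. AT5G08350 is already down at 3 h, AT5G45650 reads 236 and 210 in shoots at 12 h, and in AT5G46780 and AT2G24550 the root points lie above the shoot points at every time.

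Other genes had 12 h changes that missed the threshold. AT5G45650, a subtilase, read 299 and 214 at 1 h in shoots, 323 and 265 at 3 h, 317 and 273 at 6 h and 236 and 210 at 12 h. Its 12 h arrays overlapped those at 1 h, and the 12 h change was -0.18 ± 0.19 (limma, adjusted p = 0.52). At 24 h, on the arrays that chose it, it read 50.3 and 40.4. AT3G59780, a rhodanese-like protein of the chloroplast, AT5G40500 and AT3G10720, a pectin methylesterase, had 12 h changes of -0.52, -0.58 and -0.73 that missed the threshold (limma, adjusted p = 0.061, 0.059 and 0.095). Without the first 1 h shoot array AT3G59780 and AT5G40500 passed, at -0.86 and -0.98. Against 3 h, where its arrays read 507 and 609, AT3G10720 passed at -1.49, and AT3G59780 at -0.99. For AT1G76110, an HMG-box and ARID protein, the 1 h shoot arrays differed widely, at 77.4 and 226, and its 12 h change was -0.64 ± 0.39 (adjusted p = 0.23), or 0.08 without the second of them and -1.35 without the first.

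The shoot mean was higher at 24 h than at 12 h for 20 of the 136, among them AT5G11070 (88.0 at 24 h, against 43.3 at 12 h), AT5G46780 (20.8, against 8.41), AT2G24550 (36.6, against 15.8) and AT1G60010 (84.3, against 61.0). As the 24 h arrays took part in the choice, these are values without a test.

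By role, 42 of the 73 annotated genes fell into 7 groups, set up after the genes were known from what the loci are generally annotated to encode. Of the 42, 38 fell in shoots at 12 h and 18 at 6 h, where 126 and 62 of the 136 did and 22.1% and 7.55% of all probe sets. The counts of the single groups below are descriptions and show nothing particular to a group. In the metabolism group, 10 of 10 fell in shoots at 12 h and 8 of 10 at 6 h, with a median 12 h change of -2.06, against -1.61 for the 136. Beside the sulfotransferase, asparaginase and hydrolase above, it held the ascorbate oxidase AT5G21100 (-2.11 ± 0.19), the formamidase-like AT4G37560 (-1.64 ± 0.17) and the glutaredoxin AT1G06830 (-1.41 ± 0.42). The short-chain dehydrogenases AT2G29300, AT2G29290 and AT1G07440 changed by -2.86, -1.51 and -1.28, and the first and second of them are neighbours, with no protein-coding gene between them in the TAIR10.1 table. Neighbours likewise were AT4G33666 and AT4G33660, at -3.63 and -2.36.

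In the signalling group 7 of 7 fell at 12 h and 2 of 7 at 6 h (22.1% and 7.55% of all probe sets), with a median of -1.24. It was led by STOMAGEN, a peptide of the inner leaf tissue that promotes stomata, and IAGLU, and held the NPH3-family AT3G19850 (-2.13 ± 0.23), the calmodulin-like AT2G41090 (-1.24 ± 0.35) and 3 protein kinases between -1.16 and -0.69. In the lipid group 5 of 5 fell at 12 h (22.1% of all), from the class 3 lipase AT5G24210 (-2.25 ± 0.32) to the START-domain AT3G13062 (-1.03 ± 0.14).

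In the cell wall group 6 of 7 fell at 12 h and 2 of 7 at 6 h (22.1% and 7.55% of all), with a median of -1.10. The arabinogalactan protein AT4G16980 (-1.61 ± 0.35) and the cellulose synthase-like CSLA03 (-1.36 ± 0.29) had the lowest changes, followed by the chitinase-family AT3G47540 (-1.33 ± 0.19) and TBL26 (-1.10 ± 0.16), of a family that acetylates wall polysaccharides. The pectate lyase AT5G63180 changed by -0.89 ± 0.20 and the beta-glucosidase BGLU40 by -0.60 ± 0.19 (limma, adjusted p = 0.0033 and 0.024). A lower change in shoots than in roots passed the threshold for 3 of the 7, AT3G47540, TBL26 and AT5G63180. The last call (-0.91) was lost with a pseudocount of 1 (-0.99), without the filter on low values (-0.91) and against 3 h (-0.60). Leaving out single arrays could also end it (-0.68 without the first 1 h shoot array). The root mean of AT5G63180 from 1 to 12 h was 2.36, and its fall in shoots at 12 h did not pass against 3 h (-0.56). BGLU40 fell as much in roots, by 0.62 on the log2 scale (adjusted p = 0.029).

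Of the 6 protease genes 5 fell at 12 h (22.1% of all), with a median of -1.11, and AT5G45650 was the exception. Among the 5 genes of the transcription group 4 fell, the VQ motif gene AT5G46780 above being 1 of them. GT2 fell by 2.43, the MYB-like AT1G49010 by 2.15 and the basic helix-loop-helix AT5G50915 by 0.69 on the log2 scale. Of the 2 chloroplast genes, AT2G34620 fell. The calls of BGLU40, AT5G50915 and the subtilase AT3G14240 (-0.93 ± 0.25) were lost when single shoot arrays were left out, at lowest sizes of -0.36, -0.47 and -0.70. Those of BGLU40 (-0.46) and AT5G50915 (-0.55) were also lost with arrays centred on their median. A pseudocount of 1 ended that of BGLU40 too (-0.62).

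**Figure D5:**
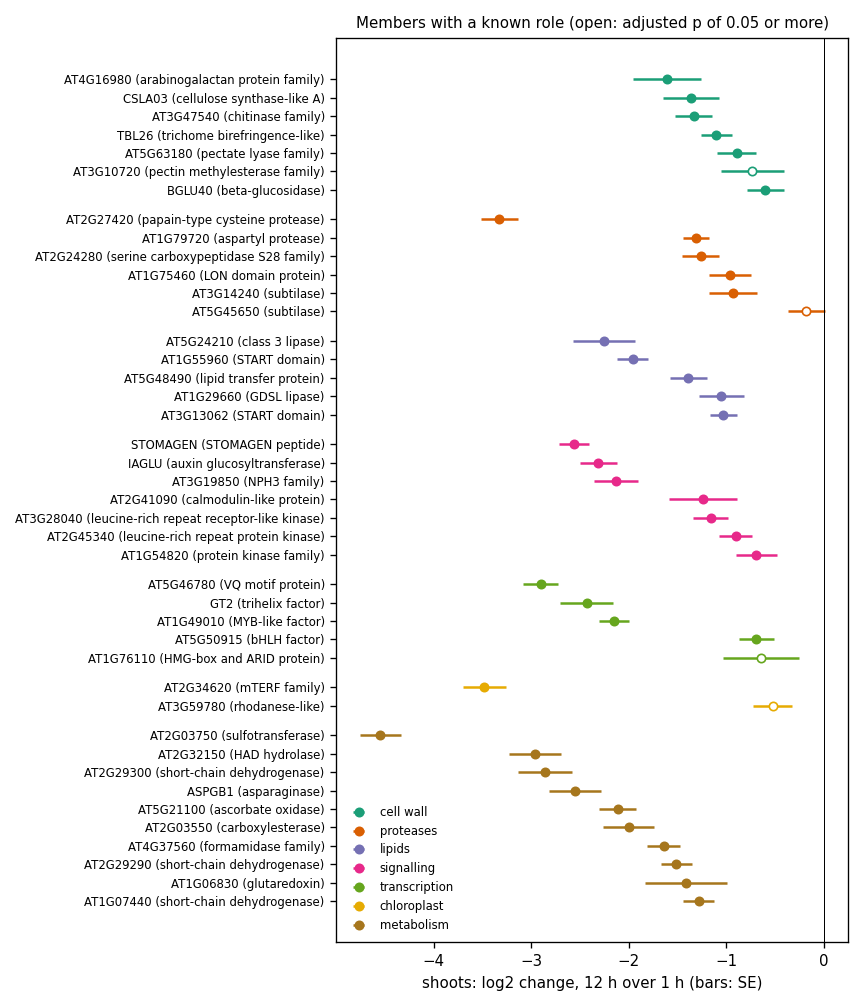
Log2 change at 12 h over 1 h in shoots with its standard error (limma) for the 42 genes with a role, in 7 groups by colour; filled points passed an adjusted p of 0.05 and open points did not. 38 of the 42 points are filled, and the lowest are the sulfotransferase AT2G03750 (-4.55) and the mTERF-family AT2G34620 (-3.48).

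STOMAGEN was followed in full because it acts in a known pathway. Its shoot arrays read 308 and 313 at 0.5 h, 373 and 326 at 1 h, 233 and 244 at 3 h, 123 and 110 at 6 h, 42.9 and 59.5 at 12 h and 64.3 and 60.9 at 24 h. No array at 3, 6 or 12 h overlapped the 1 h pair, and the 12 root arrays lay between 0.544 and 3.68. The log2 change was -0.53 at 3 h (limma, adjusted p = 0.087), -1.50 at 6 h (adjusted p = 1e-05) and -2.56 ± 0.15 at 12 h (adjusted p = 3e-08). Of 8 stomatal lineage genes listed, 1 other was measured: FAMA, the factor for the last step of guard cell formation, which fell by 1.02 ± 0.21 at 12 h (adjusted p = 0.0024) and was not among the 136. Both fell in shoots at 6 and 12 h, where 7.55% and 22.1% of all probe sets did. STOMAGEN was chosen by its fall in shoots at 24 h, so the joint fall is a description only.

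The pectate lyase family had 7 of 7 listed genes measured, AT5G63180 being the 1 among the 136. In shoots at 12 h 4 fell and none rose, with a median of -0.76, against -0.13 for all probe sets, of which 22.1% fell and 13.2% rose. AT4G24780 changed by -1.93 ± 0.21, AT1G67750 by -1.19 ± 0.40 and AT1G04680 by -0.76 ± 0.21 (limma, adjusted p = 9.9e-06, 0.034 and 0.014). AT3G27400, AT3G07010 and AT5G48900 had -0.24, 0.01 and 0.17 and did not pass. In roots 1 of the 7 fell at 12 h, where 15.9% of all probe sets did. Of the 239 loci on all 15 lists, 48 were measured, that is, had a tested probe set annotated to that gene alone. STOMAGEN and AT5G63180 were the only ones of these 48 among the 136. The 63 of the 136 without a listed gene could not be matched to the lists, so they may include other loci on them.

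Probe sets without a listed gene made up 63 of the 136, and some moved more than any annotated gene. The probe set 253061_at, chosen for mention after its values were seen, read 1952 and 1772 at 1 h in shoots, 778 and 797 at 3 h, 62.7 and 52.8 at 6 h and 15.3 and 19.9 at 12 h. Its root arrays read 351 and 221 at 1 h, 568 and 645 at 3 h, 649 and 586 at 6 h and 308 and 213 at 12 h. Shoots fell at each step with no overlap, while roots were highest at 3 and 6 h. Its log2 change in shoots was -4.79 ± 0.21 at 6 h and -6.09 ± 0.21 at 12 h, and in roots it rose by 1.09 at 3 h and by 1.12 at 6 h (limma, adjusted p = 0.03 and 0.0067). Together with AT5G11070 it supplied both of the root rises at 3 h and at 6 h.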

How the data were processed

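The authors deposited MAS5 signal intensities on a linear scale, per the submitters' processing notes, whose 2% trimmed mean was 100.01 on each of the 24 arrays. For its version and detection calls the sources used here give nothing. Of 22810 probe sets, 64 controls were left out. Probe sets were named through the platform's annotation, with TAIR10.1 used for symbols and neighbours only.

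limma 3.58.1 (R 4.3.3) was fitted to log2(intensity + 10) on the 16 arrays at 1, 3, 6 and 12 h, 8 groups of 2, with empirical Bayes moderation. The test took the 15753 probe sets that reached 30 on 2 or more of them. Benjamini-Hochberg adjustment ran within each comparison. A log2 change on this scale understates that of genes near 10 or below. The script was tested on simulated data.

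Members and lists were chosen with earlier results of these data known. Named are members with 1 gene: the 12 lowest and 6 highest 12 h changes in shoots, the 6 lowest at 3 h and at 6 h, the 6 highest in roots, those on the lists or with a symbol, and those at the bounds of the rule. Role groups were added after the members were seen, from general knowledge of the loci. The lists without a measured gene, meaning a tested probe set annotated to that gene alone, were brassinosteroid, light and shade, nitrate and wax genes. Promoter sequence was not analysed here. Alternatives were the pseudocount, filter, scaling, baseline, replicate block, all 24 arrays in the fit and single arrays left out.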

Additional observations from a re-analysis of the deposited data

Results flagged for a closer look

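The change in the cold differed between shoots and roots, by the interaction test of the limma fit, for a number of the 136 probe sets. At 3 h the change was lower in shoots than in roots for 5 of them, at 6 h for 35 and at 12 h for 102. Of all probe sets, 0.127%, 2.16% and 8.59% passed in that direction. For the 84 with a root mean under 30, the difference largely restates the fall in shoots. In a few cases the probe set fell in shoots and rose in roots, both past the threshold. These were 253061_at at 3 h, with a difference of -2.32, and at 6 h (-5.91), and AT5G11070 (-5.69) and 265894_at (-3.83) at 12 h. At 12 h the difference of 253061_at was -5.97, with a root change of -0.12 that did not pass. Neither 253061_at nor 265894_at has a listed gene, and both were chosen for mention after their values were seen. In 265894_at the 8 root arrays from 1 to 12 h were all under 15, so its difference rests mainly on shoots, where its 12 h arrays read 38.8 and 56.5, against 618 and 414 at 1 h.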

How the results depend on the processing

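The falls in shoots at 12 h kept within 116 to 128 of the 136 under the other settings and 119 to 130 without single arrays, and the 12 h difference from roots within 80 to 113 and 90 to 108. In every range given without single arrays, only arrays of the groups compared were left out, 1 at a time. Arrays of the other groups in the fit are not covered by these ranges. Counts at 3 and 6 h were less stable. In shoots, 19 fell at 3 h with a pseudocount of 30 and 8 to 15 without single arrays; at 6 h 39 to 54 fell without single arrays, and 60 without the pair named next. In roots 0 to 1 fell at 3 h and 1 to 2 at 6 h without single arrays. The 17 at 12 h became 5 with arrays centred on their median, 11 with quantile normalization, 6 to 11 without single arrays, and 28 without the pair of the first 1 h shoot array and the second 3 h root array, an alternative chosen after seeing the data. The difference between tissues passed for 2 at 3 h and 21 at 6 h with a pseudocount of 1, and for 3 to 9 and 27 to 37 without single arrays. The counts of all 15753 probe sets moved as well. In roots at 12 h, 1182 of them fell with centring and 1796 with quantile normalization, against 2504 as reported. Without single root arrays of the groups compared their count was also lower, and without the pair it was higher. In shoots at 3 h, 101 fell with a pseudocount of 30, against 89 as reported. At 6 h in shoots without the second 1 h array, their count was higher while that of the 136 was lower. The causes were not tested. At 12 h in shoots, AT1G76110 ranged from -1.35 to 0.08 without single arrays, turning without the second 1 h array, and AT5G45650 from -0.41 to 0.06, turning without the first, with or without the second 3 h root array. Centring moved the share of falls among all calls at 12 h to 46.1% in shoots and 37.3% in roots, against 62.6% and 65.0% as reported, and the number of all probe sets falling in shoots to 2293, against 3486.

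The membership itself depended on the scale. It was 106 to 118 under other settings of the rule, each smaller than the 136 reported, with 85 of the 136 kept under a pseudocount of 30 or under centring, and 127 to 144 without single arrays. No consistent pairing by replicate number was seen. Same-numbered deviations correlated by -0.10 to 0.16 in shoots and -0.43 to 0.32 in roots, which cannot exclude a pairing. With the replicate block 9, 61 and 126 fell in shoots, 0, 1 and 19 in roots, and 4, 34 and 102 differed at 3, 6 and 12 h. The 2 arrays per group limit what could be called, most of all near background in roots.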
